A study of Mus musculus with 13 samples.

Results

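Neutrophil granule genes and alarmins were followed in RNA-seq of cells sorted as MSCs (mesenchymal stromal cells, the connective-tissue cells of the marrow that support blood formation) from C57BL/6 mice. The genes were the 10 rows of the expression table named S100a8, S100a9, Ngp, Camp, Ltf, Mmp8, Retnlg, Mpo, Elane and Prtn3, out of 33432 named gene entries. They were chosen by name as 3 early granule genes (Mpo, Elane and Prtn3), 5 late granule genes (Ngp, Camp, Ltf, Mmp8 and Retnlg) and 2 alarmins (S100a8 and S100a9). The 13 libraries were 6 from pre-leukemic mice, 4 labelled recovered and 3 from healthy mice at homeostasis. The protocol names pre-leukemic mice given MSCs as a further source of cells, and the recovered libraries are read here as that source. The genetic or other origin of the pre-leukemic state, the ages, the surface markers of the sort and whether each library came from its own animals are stated in none of the sources used here. All p-values therefore measure only the spread between these samples.

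A neutrophil fills its granules in sequence as it matures in the marrow. Promyelocytes make the serine proteases and the peroxidase of the primary, or azurophil, granules, and later cells switch these genes off and make the proteins of the secondary and tertiary granules. S100a8 and S100a9 form calprotectin, a calcium- and zinc-binding complex that fills the cytosol of mature neutrophils and monocytes and acts as an alarm signal when it leaves the cell. C/EBP and PU.1 transcription factors drive these genes in granulocytes. Stromal cells are not a usual source of any of the granule proteins.

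The promoters of 4 of the genes are shown because no early gene held the C/EBP motif searched, while most of the others did. Each is the 250 bases before the gene's RefSeq start on GRCm38.p6, 5′ to 3′ on the plus strand, which is the strand of all 4 genes. For all 4 that start lies inside the span that GENCODE gives the gene. Capitals mark matches on either strand. The C/EBP motif searched was TTNNGNAA. The PU.1 motif was GAGGAA. The TATA box was TATAAA. Elane and Prtn3 are examples of the early genes, Ngp of the late genes and S100a8 of the alarmins. The regions are chr10:79886062-79886311 for Elane, chr10:79879417-79879666 for Prtn3, chr9:110419558-110419807 for Ngp and chr3:90668821-90669070 for S100a8.
Elane: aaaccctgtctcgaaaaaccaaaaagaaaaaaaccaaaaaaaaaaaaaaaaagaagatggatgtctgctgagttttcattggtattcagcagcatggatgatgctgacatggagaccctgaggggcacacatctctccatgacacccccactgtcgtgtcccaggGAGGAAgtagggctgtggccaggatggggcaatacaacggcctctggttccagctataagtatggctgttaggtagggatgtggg
Prtn3: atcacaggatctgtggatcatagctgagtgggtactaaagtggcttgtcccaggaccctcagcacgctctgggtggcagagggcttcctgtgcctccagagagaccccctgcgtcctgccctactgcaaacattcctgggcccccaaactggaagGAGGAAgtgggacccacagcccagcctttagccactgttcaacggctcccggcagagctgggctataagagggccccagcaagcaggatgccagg
Ngp: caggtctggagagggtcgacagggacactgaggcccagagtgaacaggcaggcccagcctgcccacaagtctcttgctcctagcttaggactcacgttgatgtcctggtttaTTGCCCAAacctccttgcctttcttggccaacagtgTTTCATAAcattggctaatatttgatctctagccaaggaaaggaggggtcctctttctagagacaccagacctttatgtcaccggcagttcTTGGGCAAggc
S100a8: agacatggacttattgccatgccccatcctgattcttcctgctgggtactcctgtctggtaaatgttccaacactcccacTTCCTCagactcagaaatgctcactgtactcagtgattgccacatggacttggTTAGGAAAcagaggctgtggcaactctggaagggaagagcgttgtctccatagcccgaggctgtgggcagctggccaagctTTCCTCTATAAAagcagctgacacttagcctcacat
GAGGAA lay from -85 to -80 in Elane and from -95 to -90 in Prtn3, counted back from the start. Mpo held 2 matches, from -247 and from -224. None of the 3 early windows held TTNNGNAA, and 6 of the other 7 did, Camp being the exception. GAGGAA was not particular to the early genes: the late genes Ltf and Mmp8 held it too, while Ngp, Camp and Retnlg did not. Ngp held 3 matches of TTNNGNAA, at -138, -102 and -11, and S100a8 held 1 of TTNNGNAA, at -117. The second GAGGAA match of S100a8, on the minus strand, ends next to its TATAAA, without overlap. Of all 32851 promoters in the RefSeq table, 36.8% held TTNNGNAA, 23.3% GAGGAA and 12.4% TATAAA, against 6, 6 and 1 of the 10 genes. A match describes these letters only and was not tested as a binding site.

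Values are FPKM, fragments corrected for transcript length and library size, as the authors made them, and a change is a difference in log2(FPKM + 1) with its standard error (SE) from limma across 13118 genes, which understates the change of genes with low values. Healthy 1 and 3 differed by little more than sampling noise (chi-square per gene 1.22 over genes of 10 to 100 estimated reads and 1.21 over genes of 100 to 1000, against at least 10.4 and 21.9 in the other 23 pairs of the same group). They entered the tests as 1 averaged sample, so 2 healthy samples were tested. From the steps between low values, 1 read on a transcript of 1 kb was worth about 0.166 to 0.242 FPKM in pre-leukemic, 0.349 to 0.640 in recovered and 0.318 to 0.385 in healthy libraries. The share of immunoglobulin genes in all FPKM was 54.9 to 80.5% in pre-leukemic libraries, at most 0.134% in recovered and at most 0.03% in healthy libraries. Of 14 stromal markers, 9 were lower and 1 higher in pre-leukemic than in healthy samples, while the higher gene, Ly6a (Sca-1, a surface protein of stem and other cells in mice), held most of their sum, at 3150 to 6375, against 1103 to 1390 FPKM. The other 13 summed to 124 to 358 FPKM in pre-leukemic, 2342 to 3286 in recovered and 4431 to 5340 FPKM in healthy libraries. Of 12 pan-leukocyte markers, 11 were higher, with sums of 2922 to 4318 in pre-leukemic, against 271 to 297 FPKM in healthy libraries. In bulk RNA, more cells of a type and more RNA per cell cannot be told apart.

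The alarmins were the most abundant of the 10 genes in the pre-leukemic libraries. S100a9 (ENSMUSG00000056071, chromosome 3, 90692632 to 90695721, minus strand, GRCm38) had a lowest, median and highest value of 1269, 5346 and 5949 FPKM in pre-leukemic libraries. It was at 389, 0, 150 and 0 FPKM in recovered libraries 1 to 4 and was listed at 0 in all 3 healthy libraries. Each pre-leukemic library was thus above every recovered and healthy library, and the recovered libraries divided into 2 with and 2 without the transcript. S100a8 (ENSMUSG00000056054, chromosome 3, 90668978 to 90670035, plus strand) had 1058, 3087 and 3786 FPKM as its lowest, median and highest value in pre-leukemic libraries. It was at 72.0, 1.52, 48.5 and 7.40 FPKM in recovered libraries and at 11.03, 0 and 10.7 FPKM in healthy libraries. The pre-leukemic values overlapped neither other group, whereas the recovered and healthy values overlapped. The genes lie 22.6 kb apart with no annotated gene between them. In pre-leukemic libraries the FPKM of S100a9 was 1.199 to 2.04 times that of S100a8, and in recovered 1 and 3 it was also the higher, while recovered 2 and 4 and healthy 1 and 3 listed S100a8 without S100a9.

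**Figure D1:**
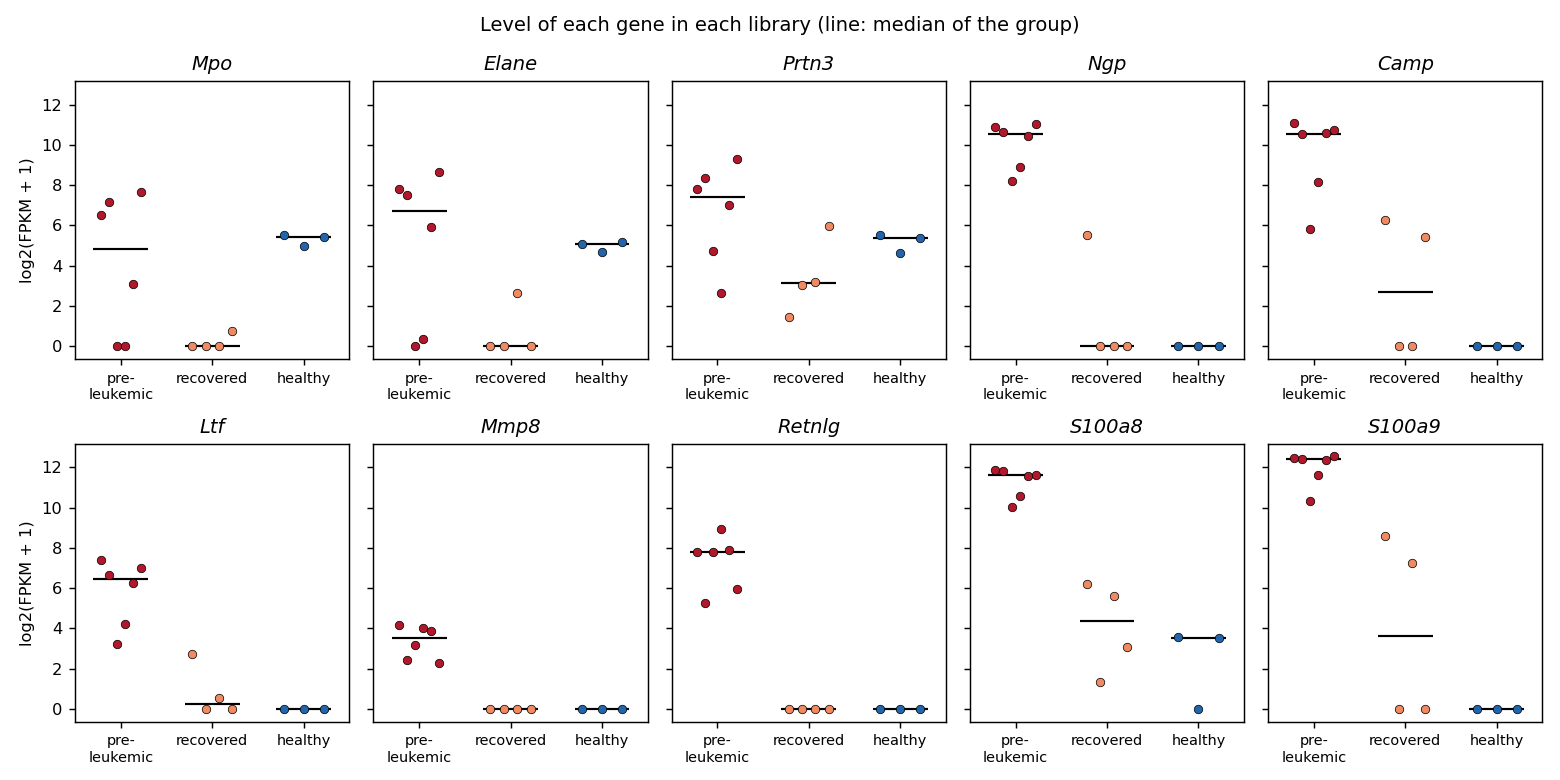
FPKM of each of the 10 genes in each library on a log2(FPKM + 1) scale, 1 point per library, grouped as pre-leukemic (6 libraries), recovered (4) and healthy (3). The alarmins and late genes lie highest in pre-leukemic libraries, and Mpo and Elane are listed at 0 in 3 of the 4 recovered libraries.

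Among the late genes, Ngp, Camp and Ltf had their highest values in pre-leukemic libraries, were listed at 0 in healthy libraries and were above 0 in recovered 1. Ngp, a cathelicidin-related protein of secondary granules (ENSMUSG00000032484, chromosome 9, 110419747 to 110423012), had 291, 1469.98 and 2062 FPKM as lowest, median and highest value in pre-leukemic libraries. It was at 45.2 FPKM in recovered 1 and listed at 0 in recovered 2 to 4 and in all healthy libraries. Camp, the cathelicidin antimicrobial peptide (ENSMUSG00000038357, chromosome 9, 109847379 to 109849617, minus strand), had 55.3, 1495 and 2184 FPKM in the same order in pre-leukemic libraries. Its recovered values were 77.3, 0, 0 and 42.2 FPKM, and healthy libraries listed it at 0. Recovered 1 was above pre-leukemic 3, so Camp was the 1 late gene whose pre-leukemic and recovered values overlapped. Ltf, the iron-binding lactoferrin (ENSMUSG00000032496, chromosome 9, 111019271 to 111042767), had 8.31, 88.5 and 166 FPKM in pre-leukemic libraries. It was at 5.68, 0, 0.460 and 0 FPKM in recovered libraries and listed at 0 in healthy ones. Camp, Ngp and Ltf lie in that order on 1 chromosome but are no direct neighbours, with gaps of 570.1 and 596.3 kb that hold other genes.

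Mmp8 and Retnlg were listed above 0 in pre-leukemic libraries alone. Mmp8, the neutrophil collagenase (ENSMUSG00000005800, chromosome 9, 7558456 to 7568485), had 3.83, 10.9 and 17.1 FPKM as lowest, median and highest pre-leukemic value. Retnlg, a secreted resistin-like protein of marrow and neutrophils in mice (ENSMUSG00000022651, chromosome 16, 48872621 to 48874496), had 37.3, 218 and 482 FPKM. Both were listed at 0 in all recovered and healthy libraries. The other resistin-like genes Retn, Retnla and Retnlb were listed at 0 in all 13 libraries.

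The early genes had another order of groups: healthy libraries held all 3, while the pre-leukemic libraries ranged widely, from 0 or a few FPKM upwards. Mpo, myeloperoxidase (ENSMUSG00000009350, chromosome 11, 87793581 to 87804413), had 0, 49.5 and 199.8 FPKM as lowest, median and highest pre-leukemic value. Recovered libraries 1 to 3 listed it at 0 and recovered 4 at 0.682 FPKM, and healthy libraries had 44.7, 30.1 and 41.9 FPKM. The healthy values stood above every recovered value and inside the pre-leukemic range. Elane, neutrophil elastase (ENSMUSG00000020125, chromosome 10, 79886247 to 79888215), had 0, 121 and 398 FPKM in pre-leukemic libraries. It was at 0, 0, 5.27 and 0 FPKM in recovered libraries and at 33.2, 24.5 and 34.8 FPKM in healthy ones. Again the healthy values were above all recovered values and within the pre-leukemic range. Prtn3, proteinase 3 (ENSMUSG00000057729, chromosome 10, 79874476 to 79883174), had 5.25, 174 and 618 FPKM in pre-leukemic libraries. Its recovered values were 1.70, 7.38, 8.13 and 61.0 FPKM, and its healthy values were 44.9, 24.1 and 40.0 FPKM. Prtn3 was the only one of the 10 genes at or above 1 FPKM in all 13 libraries, and recovered 4 held more of it than any healthy library. Elane and Prtn3 are neighbours 3.1 kb apart, yet recovered 4 listed Elane at 0. Mpo is overlapped by the antisense gene Gm11505, at 0 to 6.45 FPKM in pre-leukemic and 0 in other libraries, and Prtn3 by Plppr3 on the other strand. No source used here says whether counting used strand, so reads of such partners cannot be told apart.

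In pre-leukemic against healthy samples, the alarmins and the late genes rose and the early genes gave no call. S100a8 rose by 9.47 ± 1.10 (SE; limma adjusted p = 2.59e-05), beside 14.2% of all 13118 genes called higher and 13.1% called lower (27.3% in all), and by 7.68 without healthy 2, the 1 healthy library that listed it at 0. The other 6 of these genes, S100a9 and the 5 late genes, reached the filter of at least 1 FPKM in 3 libraries only through the pre-leukemic group, so their number among the called genes is no support for a rise. S100a9, Ngp, Camp and Ltf are therefore given by the fit with no such filter, over the 18265 genes above 0 in any library. Of those genes 8.95% were called higher. Mmp8 and Retnlg, above 0 in pre-leukemic libraries alone, enter that fit too only through this group, so no p is given for them. All 6 were listed at 0 in healthy samples, so no fold is given, and limma's adjusted p was 0.00127 for S100a9, 0.000271 for Ngp, 0.00319 for Camp and 0.00293 for Ltf. With the filter and under the other alternatives these genes and S100a8 stayed under 0.05. Those fits all kept a filter on low values, so for the 6 genes they add no support. Prtn3 averaged 220.7 ± 229 FPKM in pre-leukemic samples (SD, n = 6) and 33.2 ± 12.98 FPKM in healthy samples (SD, n = 2), a change of 1.59 ± 1.44 (limma adjusted p = 0.442). Mpo changed by -1.15 ± 1.77 (adjusted p = 0.67) and Elane by 0.14 ± 1.98 (adjusted p = 0.967). The sign for Elane turned with the scaling and with the library left out, and these large errors allow sizeable changes in either direction. Each pre-leukemic library was above each healthy library for S100a8, as for 23.7% of all genes tested, and for none of the early genes. The same separation held for S100a9 and the 5 late genes. They passed the filter only through the pre-leukemic group, so their separation is no support for a rise. Without healthy 2 the number of genes called in this comparison was 1716, against 3583 with it.

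The calls over all genes depended on how libraries were scaled, and the granule genes are to be read beside that. Scaling each library to the same sum (the TPM scale) turned the 1858 higher and 1725 lower genes of pre-leukemic against healthy samples into 787 and 4284, and moved the median change over all genes to -1.12, against 0.197 as deposited. In recovered against pre-leukemic samples the 1945 higher and 3299 lower became 3814 and 1192 under that scaling and 2460 and 2424 under quantile normalization, with medians of 0.624 and -0.074, against -0.405 as deposited. In recovered against healthy samples the 68 higher and 261 lower became 50 and 452, and 66 and 145. S100a8 kept direction and call under these scalings in both comparisons with the pre-leukemic group. S100a9 and the late genes did so too. They passed the filter on low values, which these fits kept, only through the pre-leukemic group, so for them this adds no support.

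**Figure D2:**
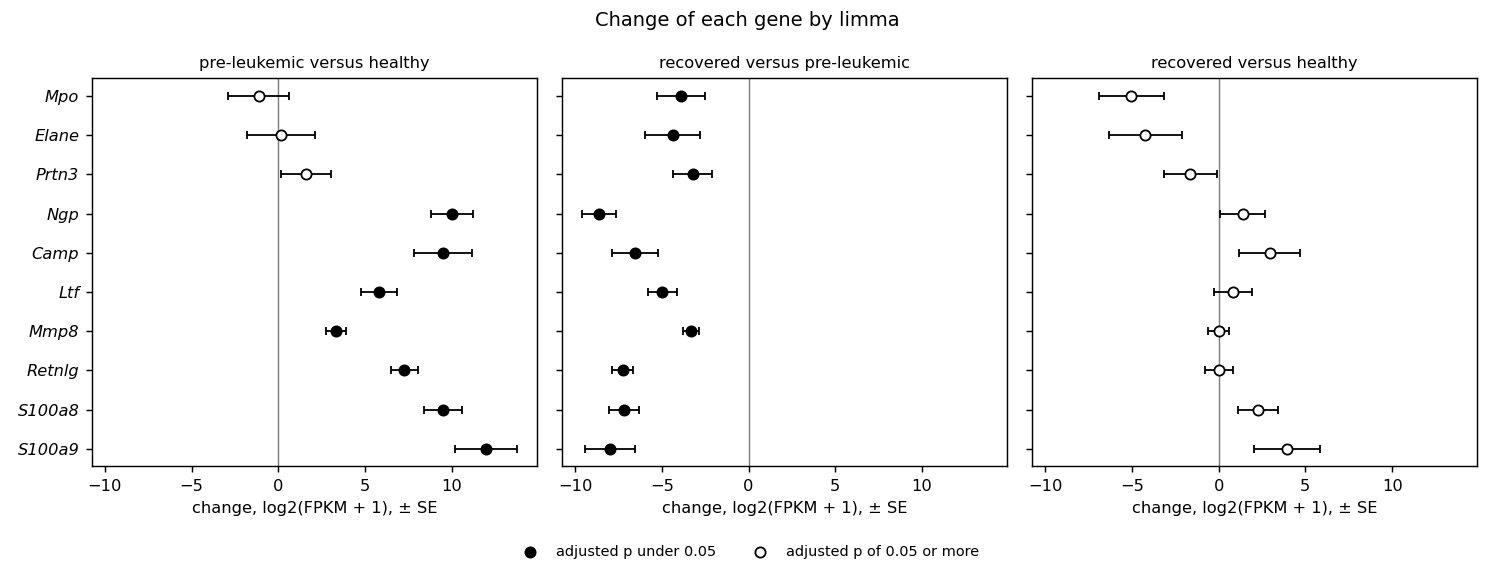
Change of each gene in 3 comparisons by limma, in log2(FPKM + 1), with bars of 1 SE and filled points for an adjusted p under 0.05. The alarmins and late genes lie to the right in pre-leukemic versus healthy, all 10 genes lie to the left in recovered versus pre-leukemic, and no point is filled in recovered versus healthy; where a group lists a gene at 0, the position depends on the pseudocount.

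In recovered against pre-leukemic samples the alarmins and the late genes fell, and the early genes were called lower near the threshold, beside 25.1% of all genes called lower and 14.8% called higher (40.0% in all). S100a8 fell by 7.20 ± 0.87 (limma adjusted p = 1.74e-05). Of the 6 genes that passed the filter only through the pre-leukemic group, S100a9, Ngp, Camp and Ltf are again given without it. There 16.1% of 18265 genes were called lower. In that fit S100a9 fell by 7.99 ± 1.56 (limma adjusted p = 0.00254), Ngp fell by 8.62 ± 1.05 (8.6e-05), Camp fell by 6.55 ± 1.43 (0.00512) and Ltf fell by 4.97 ± 0.86 (0.00114). Mmp8 and Retnlg, listed at 0 in recovered samples, get no fold, and again no p, because they enter that fit only through the pre-leukemic group. Single recovered libraries set the size of several of these falls. With each library left out in turn every one of the 7 stayed under 0.05. Those fits kept the filter, so for the 6 genes this adds no support. Without recovered 1 the changes were -7.91 for S100a8, -9.54 for S100a9, -10.0 for Ngp, -7.67 for Camp and -5.61 for Ltf. Without recovered 2 they were -6.29 for S100a8, -6.67 for S100a9 and -5.57 for Camp, which was the same without recovered 3. For S100a9 the change was -9.08 without recovered 3 and -6.67 without recovered 4, and for Camp it was -7.39 without recovered 4 and -7.28 without pre-leukemic 3. Each pre-leukemic library was above each recovered library for S100a8, as for 16.5% of all genes tested. The same separation held for S100a9 and 4 of the 5 late genes. They passed the filter only through the pre-leukemic group, so their separation is no support for a fall.

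The calls of the early genes in recovered against pre-leukemic samples lay near the threshold and were lost without any of many single libraries, while the changes kept much of their size. Mpo fell by 3.88 ± 1.40 (limma adjusted p = 0.0397), Elane fell by 4.38 ± 1.56 (0.0382) and Prtn3 fell by 3.22 ± 1.14 (0.0363). For Mpo the call was lost without pre-leukemic 1, 2 or 6, without any 1 of the 4 recovered libraries or without healthy 2 (adjusted p 0.0591 to 0.0814, changes of -4.07 to -3.17). For Elane it was lost without pre-leukemic 1, 2, 5 or 6, recovered 1, 2 or 4, or healthy 2 (0.0645 to 0.0849, changes of -4.38 to -3.66). For Prtn3 it was lost without pre-leukemic 1, 2, 5 or 6, recovered 1, 2 or 3, or healthy 2 (0.0606 to 0.117, changes of -3.22 to -2.56). All 3 calls were also lost with no filter on low values and with the replicate number as a block, where limma's adjusted p was 0.0842 for Mpo, 0.124 for Elane and 0.159 for Prtn3. The call of Mpo was lost by quantile normalization (0.052), with pseudocount 0.1 (0.053) and with only these groups fitted (0.0501), and that of Prtn3 on the TPM scale (0.23). None of the 3 separated the groups in every library. Prtn3 averaged 19.6 ± 27.8 FPKM in recovered samples (SD, n = 4), against 220.7 ± 229 in pre-leukemic samples (SD, n = 6).

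No granule gene or alarmin was called between recovered and healthy samples, where limma called 0.518% of all genes higher and 1.99% lower (2.51% in all). S100a8 changed by 2.27 ± 1.17 (adjusted p = 0.363), and S100a9, listed at 0 in healthy samples, had an adjusted p of 0.323. Among the early genes Mpo changed by -5.03 ± 1.88 (0.188), Elane by -4.24 ± 2.10 (0.339) and Prtn3 by -1.63 ± 1.53 (0.671). At an unadjusted p under 0.05, 2161 of the 13118 genes differed. For Mpo and Elane every healthy library was above every recovered library, as for 10.7% of all genes tested. The adjusted p-values of the late genes were 0.672 for Ngp, 0.45 for Camp and 0.792 for Ltf, and both groups listed Mmp8 and Retnlg at 0. With 4 recovered and 2 healthy samples this comparison called 329 genes, 82 without healthy 2 and 682 without recovered 1, so a missed threshold does not show equal levels.

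Early and late genes were then set side by side within each library, which gives a description with no test. The summed late FPKM was 3.27 to 228 times the summed early FPKM in pre-leukemic libraries. In recovered libraries 1 to 4 that ratio was 75.4, 0, 0.0343 and 0.685, and in healthy libraries it was 0 because all 5 late genes were listed at 0. The mean log2(FPKM + 1) of the late genes minus that of the early genes was 1.93 ± 2.71 in pre-leukemic (SD, n = 6), -0.39 ± 1.92 in recovered (n = 4) and -5.05 ± 0.41 in healthy samples (n = 2). The late genes thus exceeded the early genes in sum in every pre-leukemic library, and the early genes exceeded the late ones in every healthy library. In sum, the late genes also exceeded the early genes in recovered 1 and not in recovered 2, 3 and 4. The difference of mean logs ordered the libraries otherwise: it was 0.89, -0.57, 4.06, 5.83, 2.47 and -1.12 in pre-leukemic 1 to 6, 2.43, -1.02, -1.84 and -1.15 in recovered 1 to 4, and -5.38, -4.76 and -5.31 in healthy 1 to 3. By that measure recovered 2, 3 and 4 lay beside pre-leukemic 2 and 6, and every recovered library lay above the 3 healthy ones. The measure nears 0 where neither set is expressed. Late genes summed to 0, 0.460 and 42.2 FPKM in recovered 2, 3 and 4, and early genes to 7.38, 13.4 and 61.7 FPKM. In pre-leukemic 2 and 6 late genes summed to 3171 and 3981 FPKM and early genes to 650 and 1216 FPKM. The nearness therefore does not show a like make-up.

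**Figure D3:**
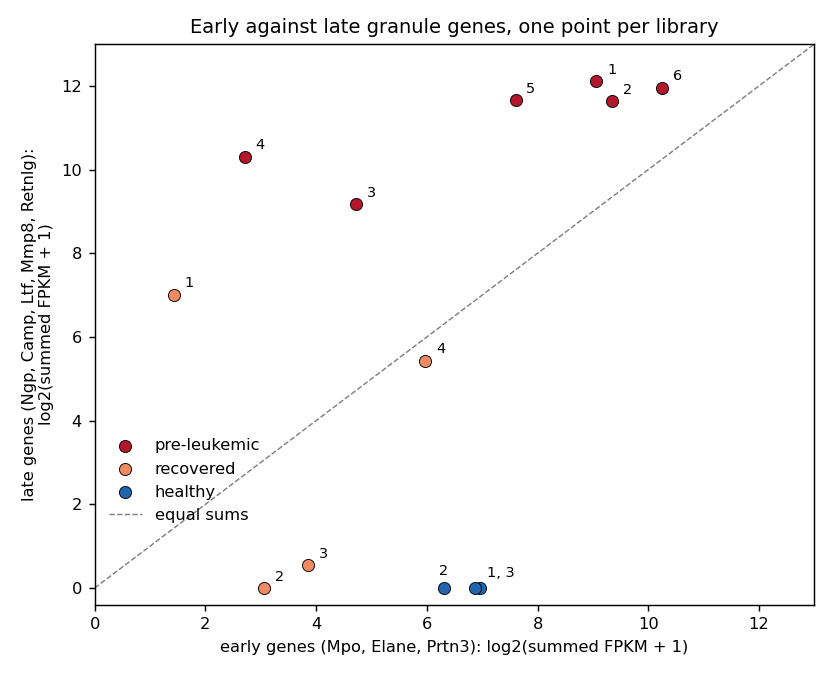
Summed early genes (horizontal axis) against summed late genes (vertical axis), both as log2(summed FPKM + 1), 1 numbered point per library, with a dashed line of equal sums. The 6 pre-leukemic libraries and recovered 1 lie above the line, recovered 2, 3 and 4 lie below it, and the 3 healthy libraries lie at 0 on the late axis.

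The make-up of the 10 genes differed in the same way. Alarmins made 63.7 to 79.3% of their summed FPKM in pre-leukemic libraries, late genes 19.8 to 30.8% and early genes 0.093 to 8.50%. Early genes made 91.6 to 100% of that sum in healthy libraries. The sum itself was 2933 to 14472 FPKM in pre-leukemic and 78.7 to 133.9 FPKM in healthy libraries. The recovered libraries had no common make-up: alarmins led in recovered 1 and 3, with 78.0 and 93.5%, and early genes in recovered 2 and 4, with 82.9 and 55.4%. The sums in recovered 1 to 4 were 591, 8.90, 212 and 111 FPKM. Recovered 2 thus held little of any of the 10 genes, mostly Prtn3.

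**Figure D4:**
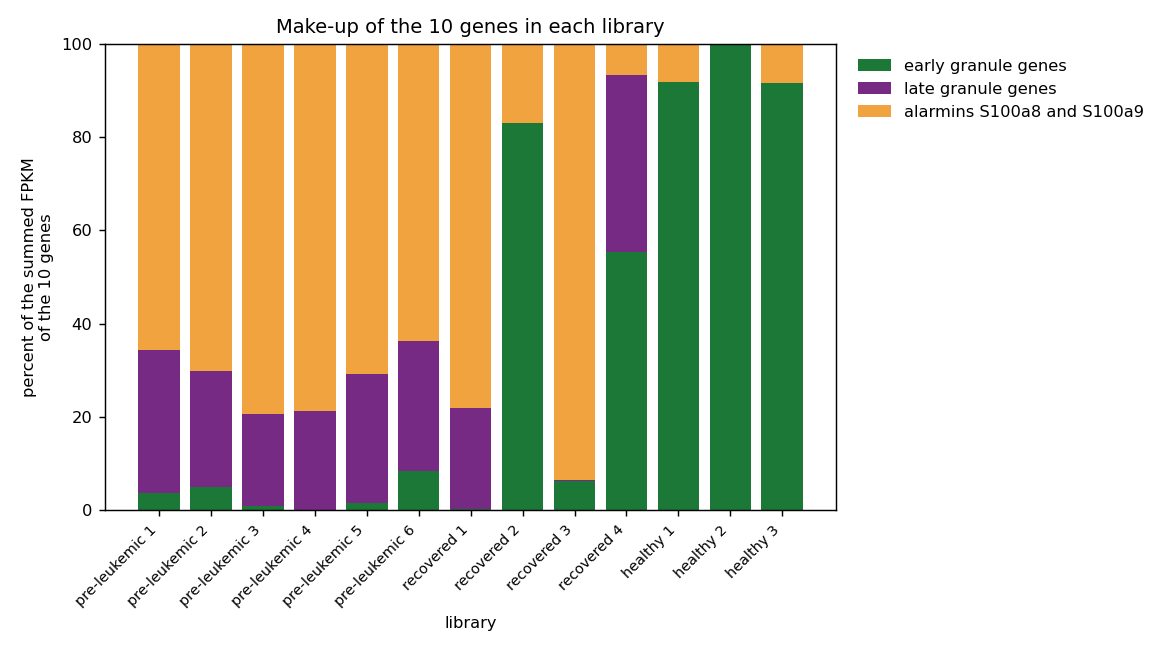
Percent of the summed FPKM of the 10 genes held by early granule genes, late granule genes and the alarmins in each of the 13 libraries. Alarmins hold most of the sum in the pre-leukemic libraries and in recovered 1 and 3, and early genes in the healthy libraries and in recovered 2 and 4.

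Within the pre-leukemic group the genes fell into sets by which libraries were high. Pre-leukemic 3 and 4 were the lowest libraries for 8 of the 10 genes, all but Mmp8 and Retnlg. For Ngp they reached 14.1 and 22.9% of the highest library, for Camp 2.53 and 12.81%, for Prtn3 4.12 and 0.85%, and for Elane 0 and 0.08%. Retnlg ran differently: it was highest in pre-leukemic 4, and pre-leukemic 2 and 6, high for the early genes, had 7.73 and 12.8% of that value. Mmp8 was likewise lowest in pre-leukemic 2 and 6, at 26.1 and 22.4% of its highest value. The ratio of Retnlg to Ngp FPKM was 0.750 and 1.02 in pre-leukemic 3 and 4 and 0.0238 to 0.174 in the other 4 libraries. Retnlg and Mmp8 thus did not share the order of libraries of the other 8 genes.

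**Figure D5:**
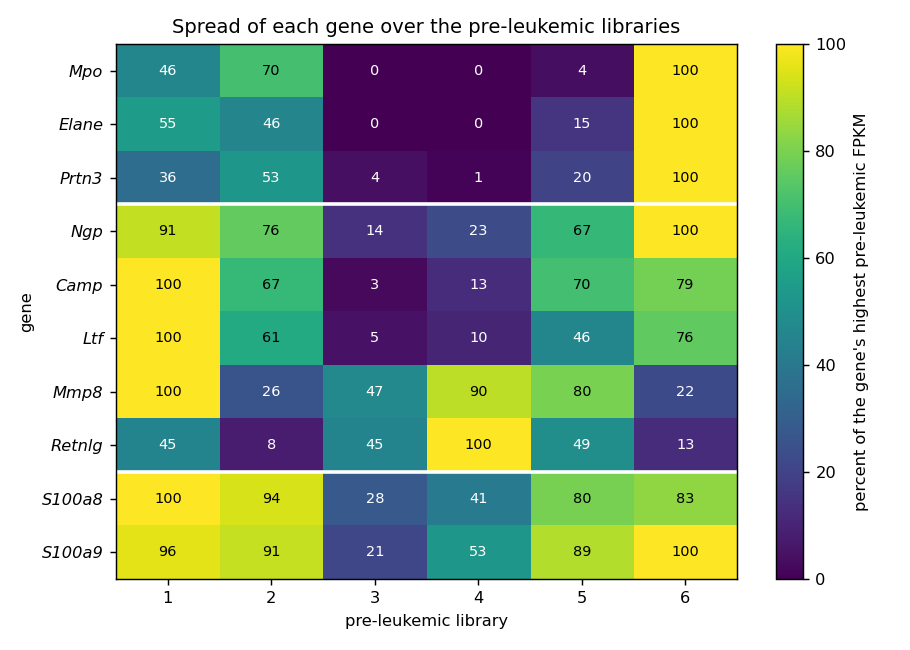
Each gene's FPKM in the 6 pre-leukemic libraries as percent of its own highest library. Pre-leukemic 3 and 4 are low for the early genes, Ngp, Camp and Ltf, and Retnlg is highest in pre-leukemic 4.

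The spread between pre-leukemic libraries was widest for the early genes. The coefficient of variation (SD over mean) was 104% for Prtn3, 108% for Elane and 116% for Mpo. It was 55.0 to 76.2% for the late genes and 41.6% for each alarmin, against a median of 35.1% over 7826 genes with a mean of at least 5 FPKM there. Highest over lowest library was 118-fold for Prtn3, 39.5-fold for Camp, 19.9-fold for Ltf, 12.9-fold for Retnlg, 7.10-fold for Ngp and 3.58-fold for S100a8. Ctsg and Ms4a3 were listed at 0 in the same low libraries. The primary granule protease Ctsg was at 95.7, 108, 0, 0, 1.74 and 129 FPKM in pre-leukemic 1 to 6, and Ms4a3, a gene of granulocyte-monocyte precursors, at 11.1, 32.9, 0, 0, 11.997 and 28.9 FPKM.

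The genes most like 3 of the set over the 6 pre-leukemic libraries were found by Pearson's r of log2(FPKM + 1) among 7430 genes with a mean of at least 5 FPKM there, predicted and numbered gene models left out. This is a description of 6 libraries that share the low values of pre-leukemic 3 and 4. For S100a9 they were the lysozyme gene Lyz2 (r = 0.992), Diap1 (0.988), Camp (0.987), Dgcr6 (0.985) and Id1 (0.984). For Ngp they were Ltf (0.993), Supt3 (0.989), Id1 (0.988), Rsrp1 (0.986) and Serpinb1a (0.985), an inhibitor of neutrophil proteases. For Mpo they were Pes1 (0.991), Snrpe (0.986), Rpa1 (0.983), Ctsg (0.983) and Map3k12 (0.981).

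Other granule genes were counted from lists chosen with earlier results of these data known. The counts of these and the following lists stand beside 14.2% of all genes called higher and 13.1% lower in pre-leukemic against healthy samples, and 14.8% higher and 25.1% lower in recovered against pre-leukemic samples. Of 12 other secondary, tertiary and secretory granule genes tested, 9 were higher and 1 lower in pre-leukemic than in healthy samples, and 9 were lower and 1 higher in recovered than in pre-leukemic samples. Lcn2, an iron-siderophore-binding protein of secondary granules, ranged over 218 to 1015 FPKM in pre-leukemic and 13.9 to 152 FPKM in recovered libraries and was listed at 0 in healthy ones (limma adjusted p = 1.27e-06 for pre-leukemic against healthy). It was the 1 gene of that list called between recovered and healthy samples (adjusted p = 0.00215), a call lost when only those groups were fitted (0.0993). Pglyrp1, a peptidoglycan-binding protein, was called higher in pre-leukemic than in healthy samples by 6.08 ± 0.61 (7.16e-06). Of 8 other primary granule genes, 2 were higher in pre-leukemic than in healthy samples and 6 gave no call. Those 2 were Lyz2 (6.55 ± 0.82, 4.57e-05) and Srgn, the granule proteoglycan (4.57 ± 0.47, 8.81e-06), both expressed in other leukocytes too. In recovered against pre-leukemic samples 5 of the 8 were lower, against 2 to 7 under the other scalings, 2 with the replicate block or no filter, and 2 or 3 without pre-leukemic 1, 2, 5 or 6, recovered 2 or 3, or healthy 2.

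Genes that act on or with the granule proteins moved in mixed ways. All 6 tested subunits of the NADPH oxidase, which makes the oxidants that myeloperoxidase uses, were higher in pre-leukemic than in healthy samples and lower in recovered than in pre-leukemic samples. The call of Cyba, its small membrane subunit, depended on the scaling: the change was 1.02 in the first comparison and -0.84 in the second, against -0.64 and 0.62 on the TPM scale without a call, and the first call was also lost without healthy 2. The other 5 kept both calls under every alternative. Cybb, the catalytic subunit, changed by 5.39 ± 0.48 (limma adjusted p = 2.56e-06) in the first comparison and by -5.30 ± 0.38 (1.41e-07) in the second. Of 9 other S100 genes tested, none was higher and 6 were lower in pre-leukemic than in healthy samples, and 8 were higher in recovered than in pre-leukemic samples, opposite in sign to S100a8 and S100a9. S100a6 changed by -2.39 ± 0.28 (2.81e-05) in the first and by 2.92 ± 0.22 (2.52e-07) in the second comparison, and S100b by -4.94 ± 0.62 (4.48e-05) and by 5.47 ± 0.49 (1.06e-06). The alarmin receptor Tlr4 averaged 2.09 ± 1.18 FPKM in pre-leukemic (SD, n = 6), 7.05 ± 4.57 in recovered (n = 4) and 7.98 ± 2.196 in healthy samples (n = 2), with no call in pre-leukemic against healthy samples (0.131). Of 7 tested receptors for alarmins and granule peptides, 2 were higher and 1 lower in pre-leukemic than in healthy samples, against 1 higher and 3 lower on the TPM scale and 1 higher without any 1 of the pre-leukemic libraries or without healthy 2 or 3. Fpr2, a formyl peptide receptor that binds cathelicidin in humans, was called higher (adjusted p = 0.000135), and it was listed at 0 in healthy samples.

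Among 10 granulocyte transcription factors, 3 were higher and 4 lower in pre-leukemic than in healthy samples, beside the 14.2 and 13.1% of all genes. The calls of Spi1 as higher and Runx1 as lower were lost with no filter and with the replicate block, that of Spi1 also on the TPM scale. Gfi1 and Spi1 passed the filter only through the pre-leukemic group, so their calls are no support for a rise. Gfi1, a repressor required for neutrophil maturation, was at 19.2 to 40.9 FPKM in pre-leukemic, 0.225 to 1.33 in recovered and 0 to 0.398 FPKM in healthy libraries. Irf8, a monocyte and dendritic cell factor, changed by 5.91 ± 0.74 (limma adjusted p = 4.58e-05). Cebpe, the factor of secondary granule genes, was at 0.42 to 11.3 FPKM in pre-leukemic libraries, at 0 in recovered and at 0 to 0.33 FPKM in healthy libraries, without a call (0.0647). Cebpd changed by -4.28 ± 0.65 (0.000222) and Klf4 by -3.33 ± 0.40 (3.57e-05). Of 6 tested protease inhibitors, 2 were higher (1 on the TPM scale or without healthy 2) and 3 lower in that comparison, beside the same shares. Slpi, an inhibitor of neutrophil elastase, averaged 1928 ± 404 FPKM in pre-leukemic, 93.0 ± 48.9 in recovered and 118 ± 10.2 in healthy samples, a change of 3.99 ± 0.35 (2.45e-06) in pre-leukemic against healthy samples. Serpina3n ran the other way (-6.67 ± 0.58, 2.29e-06). Of 11 granulocyte receptors and adhesion genes, 6 were higher and none lower, among them the integrin chain Itgb2 (6.53 ± 0.67, 8.76e-06) and the granulocyte colony-stimulating factor receptor Csf3r. Csf3r was at 0.46 to 7.18 FPKM in pre-leukemic and 0 to 0.29 FPKM in healthy libraries (1.901 ± 0.559, 0.0208), a call lost on the TPM scale and without healthy 2.

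Markers of several blood cell types moved with the granule genes, and those of others did not. Of 10 further neutrophil markers, 6 of them also in the granule list, 8 were higher in pre-leukemic than in healthy samples. Cd177, Csf3r, Itgam, Ly6g, Chil3 and Mcemp1 passed the filter only through the pre-leukemic group, so their number is no support for a rise. The 10 markers had sums of 370 to 1676 in pre-leukemic, 89.8 to 242 in recovered and 34.7 to 40.0 FPKM in healthy libraries. Ly6g, which defines mouse neutrophils, was at 1.85 to 11.9 FPKM in pre-leukemic libraries and at 0 elsewhere. Of 10 tested monocyte markers, 6 were higher and 1 lower, with sums of 3655 to 5466, 42.4 to 167 and 65.7 to 71.7 FPKM in the same order of groups. In pre-leukemic libraries Ly6c2 alone was at 2135 to 3728 FPKM, but Csf1r was at 0 to 2.2 FPKM and Cx3cr1 at 0. Of 8 precursor markers, 2 were higher, and in recovered against pre-leukemic samples 4 were lower and 1 higher. Cd34, also made by stromal and endothelial cells, held most of their sum outside the pre-leukemic group, at 17.7 to 69.6 FPKM in pre-leukemic, 169 to 304 in recovered and 68.7 to 108 FPKM in healthy libraries. The other 7 summed to 15.3 to 221, 11.52 to 21.2 and 19.0 to 51.2 FPKM. In healthy libraries, where the early genes were found, the precursor receptor Kit was at 0, while Ctsg was at 8.63 to 20.9 and Ms4a3 at 1.36 to 13.2 FPKM. All 7 plasma cell markers were higher, with sums of 46362 to 72385, 78.0 to 164 and 144 to 179.5 FPKM, as were 9 of 11 T and NK cell markers. Igj alone was at 44478 to 69250 FPKM of the plasma cell sum in pre-leukemic libraries. Of 9 B cell markers 3 were higher and 4 lower. Of 6 tested erythroid markers none was higher and 3 were lower in pre-leukemic than in healthy samples, with sums of 8.97 to 68.5 in pre-leukemic, 1657 to 2655 in recovered and 55.6 to 65.9 FPKM in healthy libraries. Of 4 tested megakaryocyte and platelet markers 1 was lower, and 3 were higher in recovered than in pre-leukemic samples. The part of these cell types in the levels of the 10 genes was not tested.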

How the data were processed

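RNA-seq measured polyadenylated RNA of sorted mouse MSCs in 13 libraries (6 pre-leukemic, 4 recovered, 3 healthy). Per the submitters' processing notes, the authors worked on mm10 with TopHat, Cufflinks 2.2.1 and Cuffnorm after bcl2fastq, and the deposited values are FPKM. Cuffnorm's scaling method, the annotation and read counts were not used here, or no source used here states them. Of the table's rows, 1 had no gene name and was left out. Coordinates come from GENCODE M21 (GRCm38), which is the same assembly as mm10, and promoters from RefSeq GRCm38.p6, where all 10 genes matched by symbol.

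Values were tested as log2(FPKM + 1) in R 4.3.3 by limma 3.58.1 (lmFit, then eBayes with its trend option) for the 13118 genes that reached 1 FPKM in 3 or more libraries. All groups were in 1 fit of 12 samples with 9 residual degrees of freedom. Adjusted p-values are Benjamini-Hochberg values over all genes tested, called under 0.05, and a value in parentheses after a change is that p. The members and lists were chosen with earlier results of these data known. The named genes are the 10 members, up to 4 genes with the smallest p of each list, and the 5 most like S100a9, Ngp and Mpo; Cebpe, Csf3r, Cyba, Tlr4, Ctsg, Ms4a3 and single cell type markers are given besides these as values. Depth is approximate, from the steps between low values of single-transcript genes of at least 800 bp, and covers counting error only. Alternatives were other scalings (quantile, the TPM scale with its equal sum, and a sum without immunoglobulin genes), pseudocount 0.1, other filters and robust eBayes. Further ones were only the groups compared, 13 separate libraries, the replicate number as a block, and each library left out. The fit was tested on simulated data. Summaries and plots used Python 3.11.15, numpy 2.4.6, pandas 2.3.3 and matplotlib 3.10.9.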

Additional observations from a re-analysis of the deposited data

Results flagged for a closer look

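In 20 groups of 4 or 6 libraries, 5 held a library far from the rest by Dixon's test. The 20 were each gene in the pre-leukemic and in the recovered group, without Mmp8 and Retnlg in the recovered group, and the late minus early difference in both. Chance gives about 1 in 20 where values vary freely, but for Ngp, Mpo and Elane the other 3 recovered libraries were at 0, so any value above 0 stands apart and that rate does not apply. All 5 were in the recovered group. Recovered 1 stood apart for Ngp, at 45.206 FPKM with the others at 0, and for Ltf, at 5.6835 FPKM. Recovered 4 stood apart for Mpo, at 0.6817 FPKM with the others at 0, and for Prtn3, at 61.0233 FPKM. Recovered 3 stood apart for Elane, at 5.2674 FPKM with the others at 0.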

How the results depend on the processing

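Over all alternatives, changes of single genes kept their direction and side of the threshold 221 times and reversed 8 times in pre-leukemic versus healthy, kept them 195 times and lost the call 34 times in recovered versus pre-leukemic, and kept them 227 times in recovered versus healthy. All 8 reversals were of Elane, never called: -1.04 with libraries on the TPM scale, -0.66 with pseudocount 0.1, -0.36 with a replicate block, and -0.58 to 1.15 over libraries left out. All 34 lost calls were of Mpo, Elane and Prtn3. S100a9 and the late genes passed the filter on low values only through the pre-leukemic group. Their kept calls in fits with a filter therefore add no support. Genes called in recovered versus healthy numbered 211 by quantile normalization, 502 on the TPM scale, 122 with a mean of at least 5 FPKM, 767 with 13 separate libraries and 6 with only those groups, and 82 to 682 over libraries left out. The range over libraries left out was 1716 to 4112 in pre-leukemic versus healthy and 4636 to 5261 in recovered versus pre-leukemic. Late minus early in healthy samples was -8.34 with pseudocount 0.1 and -5.73 on the TPM scale. The causes were not tested. The replicate block gave 3700 called genes in pre-leukemic versus healthy, 4527 in recovered versus pre-leukemic and 303 in recovered versus healthy. It ended the calls of Mpo, Elane and Prtn3 in recovered versus pre-leukemic. Deviations of same-numbered libraries correlated at -0.019 to 0.034, and those of differently numbered libraries at -0.042 to 0.037. In groups this small that cannot show whether the numbers pair samples. Values under about 0.497 to 1.92 FPKM on 1 kb rest on fewer than 3 reads, more for shorter transcripts.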
